A study of Bos taurus with 10 samples.

Results

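Globin transcripts were followed in longissimus muscle, the long muscle of the back, of 10 steers. The members were 3 cattle genes, chosen by their Ensembl identifiers: ENSBTAG00000038748, the beta globin gene HBB, and ENSBTAG00000026417 and ENSBTAG00000026418, alpha globin genes that are near-identical copies. Of these 3, 2 had a row among the 16963 gene rows of the deposited count table, and ENSBTAG00000026417 had none. The steers were a cross of Angus and Simmental, 385 ± 5 days old when sampled. They differed in what their dams ate during lactation: dried distillers grains and solubles for the dams of 5 steers (DDGS), and the control diet labelled SBM for the dams of the other 5. Every steer gave 1 library. Sires, sampling days, sequencing batches and how far the tissue was bled are not stated in the labels. Libraries were prepared from total RNA with the TruSeq Stranded Total RNA kit, and whether ribosomal or globin RNA was depleted is not given in the sources used here.

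Haemoglobin, the oxygen carrier of red blood cells, is built from alpha and beta globin chains around haem groups. Its messenger RNAs are made in red cell precursors in the bone marrow and persist in reticulocytes, the youngest circulating red cells, of which healthy adult cattle have few. In a piece of muscle, globin RNA is commonly read as a sign of blood left in the vessels, while myoglobin, the muscle fibre's own oxygen store, is the product of a separate gene. In bulk tissue, more red cells and more globin RNA per red cell cannot be told apart. In the RefSeq annotation of the cattle assembly ARS-UCD2.0, HBB lies among the other beta-like globin genes, with HBE2 as the next named gene on one side and HBE4 on the other. The genes HBA and HBA1 lie next to each other in the same annotation, between HBM and HBQ1. The annotation as used here lists no Ensembl identifiers, so 0 of the identifiers in the count table could be matched to it. The globin names therefore come with the 3 identifiers, and neither they nor the labelled tissue were checked against sequences or marker genes here.

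Libraries held 16942156 to 24936741 counts, and single-gene levels are given as CPM, counts per 1000000 counts of the library, with library sizes scaled by TMM factors. No value in the table was below 1, and 2524 to 5078 rows per library were listed at exactly 1. Such a value was not read as an observed fragment, and 3 counts were used as the limit that an undetected gene allows, which was 0.126 to 0.204 CPM. Intervals and limits cover counting error only, because amplified reads without molecular identifiers are not independent molecules.

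Beta globin was detected in every animal, and its level differed greatly between animals. In the DDGS group HBB had 221 counts in replicate 1, 69 in replicate 2, 17 in replicate 3, 94 in replicate 4 and 831 in replicate 5. In the SBM group it had 219 counts in replicate 1, 1836 in replicate 2, 355 in replicate 3, 450 in replicate 4 and 1006 in replicate 5. In CPM, the DDGS levels were 9.26, 3.58, 1.15, 4.88 and 40.3 CPM in the same order. The SBM levels were 12.6, 96.3, 17.2, 24.1 and 52.5 CPM. DDGS replicates 1 to 4 lay below all SBM animals, while DDGS replicate 5 lay above 3 of the 5 SBM animals, so the groups overlapped through that 1 animal.

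**Figure D1:**
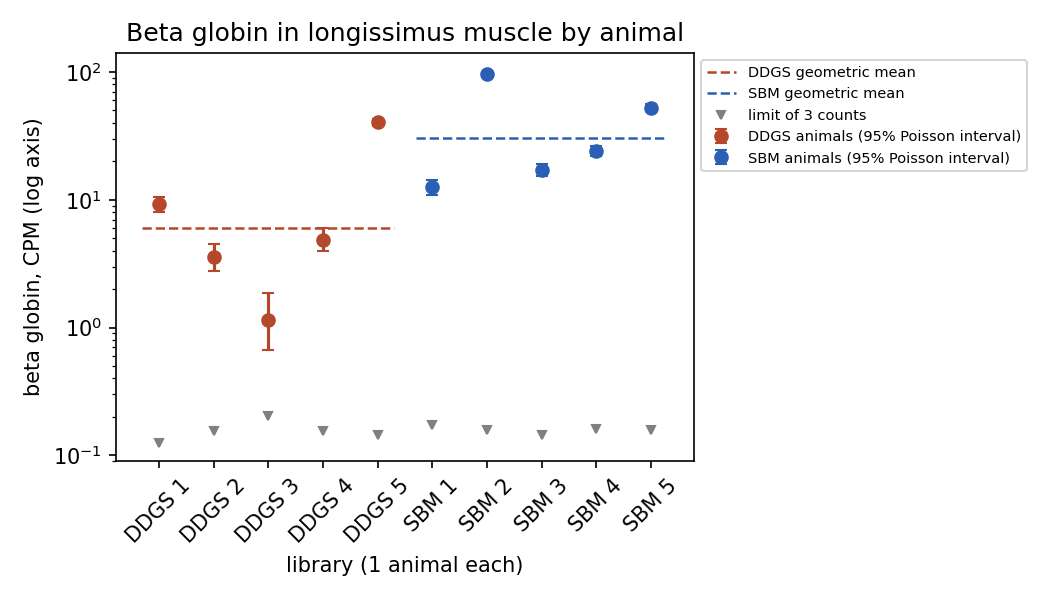
Beta globin (HBB) level in CPM on a log axis for each of the 10 animals, with exact 95% Poisson intervals as bars, group geometric means as dashed lines and the limit of 3 counts per library as grey triangles. All points lie above the limit, from 1.15 CPM in DDGS replicate 3 to 96.3 CPM in SBM replicate 2, and DDGS replicate 5 is the only DDGS animal among the SBM levels.

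The highest animal had 83.4 times the HBB level of the lowest. In increasing order the animals were DDGS replicates 3, 2, 4 and 1, SBM replicates 1, 3 and 4, DDGS replicate 5, and SBM replicates 5 and 2. Exact 95% Poisson intervals were 0.673 to 1.85 CPM for the lowest animal and 92.0 to 101 CPM for the highest. Of the 45 pairs of animals, 44 had intervals that did not overlap. The exception was DDGS replicates 2 and 4, with intervals of 2.79 to 4.54 and 3.95 to 5.98 CPM. The order is therefore resolved against counting error for all neighbours but that pair, whereas the spread between repeated samples of 1 animal was not measured.

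The HBB row took a very small part of each library. HBB made up 9.76e-05% of all counts in DDGS replicate 3 and 0.00942% in SBM replicate 2, with a median of 0.00156% over the 10 animals. By counts it stood at rank 464 of the 16963 rows in SBM replicate 2 and at rank 10198 in DDGS replicate 3. By mean CPM, 26.2 over all animals, its rank was 2097. HBB thus ranged from a low-count gene in one animal to one of the more abundant genes in another.

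The spread of HBB between animals was large for a gene of its level. The SD of log2(CPM + 1) over the 10 animals was 1.71, against a median of 0.47 over the 12295 genes that passed edgeR's expression filter. Of those genes, 99.7% had a smaller SD. Among the 2982 of them with a mean CPM within 2-fold of that of HBB, the median SD was 0.32, and 12 exceeded HBB. The biological coefficient of variation of HBB, the square root of edgeR's gene-wise dispersion, was 0.995, where the trend for genes of its level gave 0.29. By this measure 95.7% of tested genes had a lower value. The ranks by SD include any part of the spread that follows the dams' diet, whereas the coefficient of variation was estimated with diet group in the fit.

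**Figure D2:**
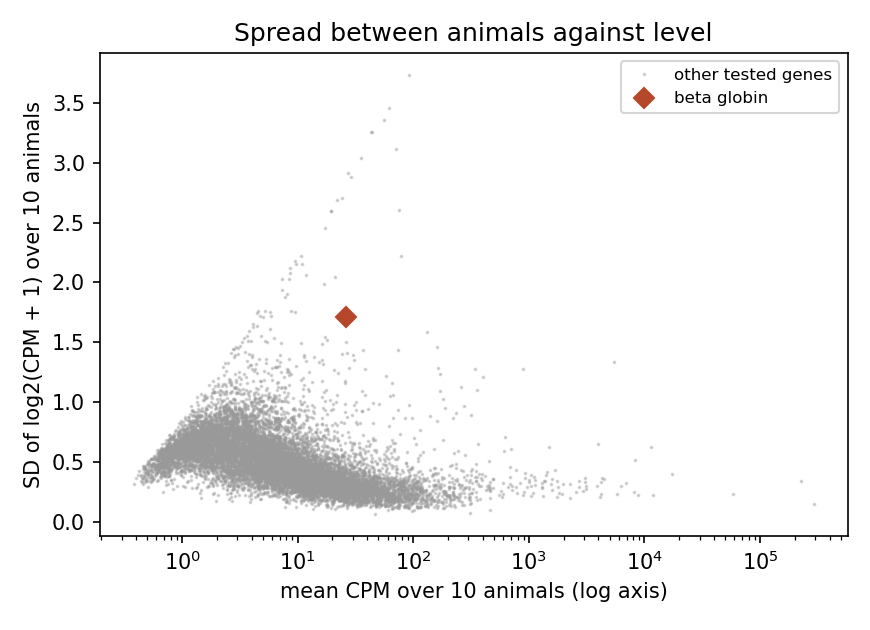
Mean CPM (log axis) against the SD of log2(CPM + 1) over the 10 animals, 1 grey point per tested gene. The red diamond is beta globin (HBB), with an SD of 1.71 at a mean of 26.2 CPM, above the bulk of genes of its level, whose median SD is 0.32.

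The question for the diets was whether muscle of steers whose dams ate distillers grains held a different amount of globin RNA. HBB averaged 11.8 ± 16.2 CPM among DDGS animals and 40.5 ± 34.8 CPM among SBM animals (SD, n = 5 each), and in 22 of the 25 pairs of 1 DDGS and 1 SBM animal the DDGS animal was lower. The geometric means were 5.96 CPM in DDGS and 30.5 CPM in SBM, a ratio of 5.11. The fitted DDGS over SBM value was -1.77 on the log2 scale (standard error 0.997), which is a fold of 0.293 with a 95% interval of 0.060 to 1.43. The difference did not pass edgeR's quasi-likelihood test (unadjusted p = 0.112, Benjamini-Hochberg adjusted p = 0.996 over 12295 genes). In that test 0% of genes were called at an adjusted p under 0.05, and 3.74% had an unadjusted p under 0.05. Over all tested genes the median log2 fold change was -0.01. The interval includes equal levels as well as a DDGS level of 0.060 times that of SBM.

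The size of the difference depended on the scale and on single animals. On the log2(CPM + 1) scale HBB averaged 2.92 ± 1.59 in DDGS and 4.99 ± 1.17 in SBM animals (SD, n = 5 each), a difference of -2.07. An exact two-sided permutation test of that value gave p = 0.0476, where the smallest possible p is 0.00794. This test was added after the data had been seen. As small an exact p was found for 571 tested genes, or 4.64%, and after adjustment over all tested genes the p for HBB was 0.96. By limma voom with sample weights the log2 fold change was -2.28 (unadjusted p = 0.00526, adjusted p = 0.875), in a fit where 3.06% of genes were lower in DDGS at an unadjusted p under 0.05. That share is counted at 0.05 and not at the smaller p of HBB. By DESeq2 the log2 fold change was -1.79 (unadjusted p = 0.0503, adjusted p = 0.689), and DESeq2 called 0.109% of the genes it tested, HBB not among them.

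Without DDGS replicate 5 the edgeR value was -3.09 on the log2 scale, standard error 0.854 (unadjusted p = 0.00785, adjusted p = 0.967), where 2.97% of genes were lower in DDGS at an unadjusted p under 0.05. Again the share is counted at 0.05 and not at the smaller p of HBB. DDGS replicate 5 is the animal through which the groups overlapped, so a larger difference without it follows from the levels already given. Without SBM replicate 2, the animal with the highest level, the fitted log2 value was -1.16, standard error 0.996 (edgeR adjusted p = 0.995). Every fit without 1 library kept the lower value in DDGS, and none passed the adjusted threshold.

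**Figure D3:**
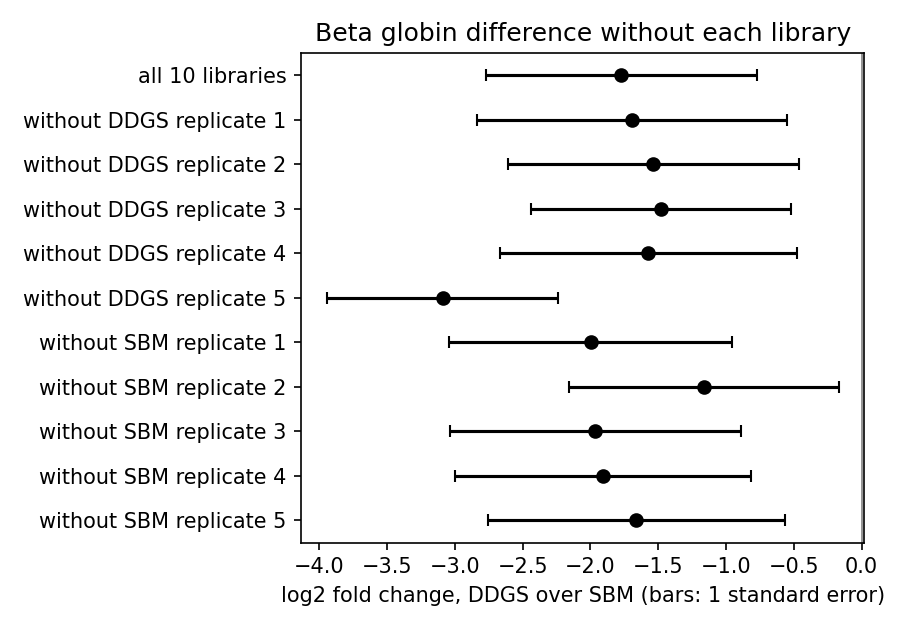
Fitted log2 fold change of beta globin (HBB), DDGS over SBM, from edgeR with all 10 libraries and without each library in turn; bars are 1 standard error. All estimates are negative, from -3.09 without DDGS replicate 5 to -1.16 without SBM replicate 2.

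The alpha globin row stood near the floor of the table. ENSBTAG00000026418 was listed at 1 in all 5 DDGS animals and in SBM replicates 1, 3, 4 and 5, and had 6 counts in SBM replicate 2, or 0.315 CPM. That animal also had the highest HBB level. In the other 9 animals the alpha row was at its lowest possible value, while SBM replicate 5 had 1006 and DDGS replicate 5 had 831 counts of HBB. Being listed at 1 in at least 9 libraries was shared by 1476 rows, or 8.70% of the table. ENSBTAG00000026418 did not pass the expression filter and was not in the edgeR fit reported for HBB. Without the filter edgeR gave an unadjusted p of 0.178 (adjusted p = 0.765) for it, and DESeq2 gave an unadjusted p of 0.541 and no adjusted p. No fold change is given for it, and these p-values allow no comparison of the diets, since all libraries but 1 were under the limit of 3 counts.

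Alpha globin counts were far below beta globin counts wherever the depth allowed a comparison. In SBM replicate 2 there were 0.327 alpha counts per 100 beta counts, and alpha made up 0.326% of the summed counts of both rows (95% exact Clopper-Pearson interval 0.120% to 0.708%). Elsewhere only an upper limit could be set, from 3 alpha counts. It was 0.298 per 100 beta counts in SBM replicate 5, 0.667 for replicate 4 of that group, 0.845 for replicate 3 and 1.37 for replicate 1. Among DDGS animals the limit was 1.36 for replicate 1, 4.35 for replicate 2, 17.6 for replicate 3, 3.19 for replicate 4 and 0.361 for replicate 5. These are ratios of counts and not of RNA molecules, because transcript lengths of the files' build were not used here. They cover only 1 of the alpha rows named, and reads from near-identical copies can be split, lost or assigned to 1 copy in counting, in a way the sources used here do not state. An alpha to beta ratio of the RNA in the tissue was therefore not obtained.

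**Figure D4:**
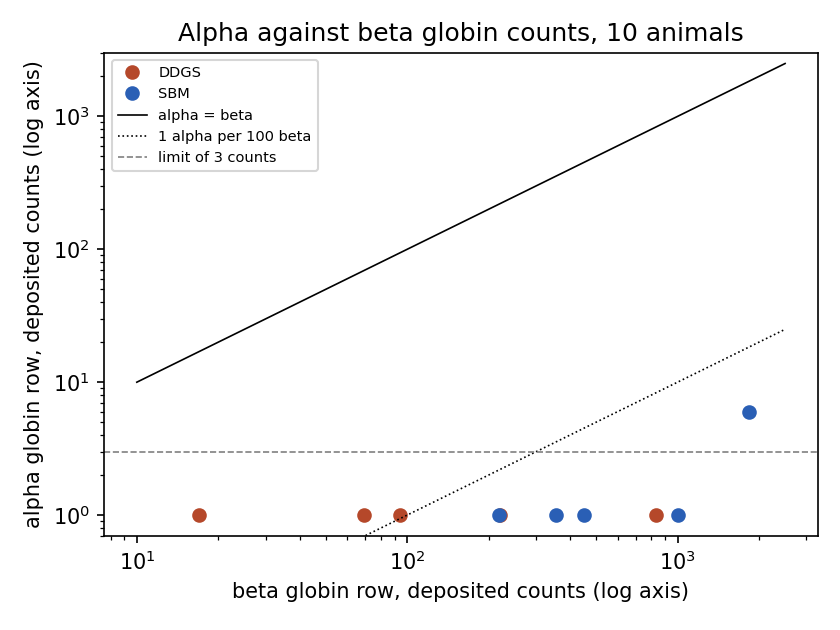
Deposited counts of the alpha globin row ENSBTAG00000026418 against those of beta globin (HBB), both on log axes, 1 point per animal, with lines for equal counts, for 1 alpha per 100 beta counts and for the limit of 3 counts. All animals but SBM replicate 2, with 6 alpha and 1836 beta counts, lie at 1 alpha count; the points of DDGS replicate 1 (221 beta counts) and SBM replicate 1 (219) cover each other.

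Computed from the listed values, the log2 ratio of alpha to beta was -6.85 ± 2.08 in DDGS and -8.66 ± 0.83 in SBM animals (SD, n = 5 each). The difference of 1.81 did not pass an exact two-sided permutation test (p = 0.111). With alpha at 1 in 9 of the 10 libraries, this ratio is in those libraries the inverse of the HBB count and carries no separate information on alpha globin. Without DDGS replicate 5 the difference was 2.52 (exact permutation p = 0.0159), which restates the HBB counts of the remaining animals. Without each of the other libraries the exact permutation p was 0.103 to 0.222.

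The alpha and beta rows could not serve as checks of each other across animals. Over the 10 animals Pearson's r of their log2(CPM + 1) values was 0.506 (permutation p = 0.191) and Spearman's rho was 0.139 (permutation p = 0.705). Adjusted over the 4 relations computed for HBB, the permutation p-values were 0.382 and 0.811. Leaving out DDGS replicate 3 and SBM replicate 2 brought Pearson's r to 0.026; these are the animals farthest from the median HBB level. Without SBM replicate 2 alone it was -0.489. In that value the alpha levels differ only by the TMM-scaled library size, since every remaining alpha count is 1. In Spearman's rho, too, the alpha order of all animals but SBM replicate 2 is set only by that library size. The positive Pearson's r thus rests on SBM replicate 2.

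HBB was also set beside measures of the libraries. Pearson's r of HBB with the log2 total count was 0.068 (permutation p = 0.859, adjusted p = 0.859) and Spearman's rho was 0.091 (permutation p = 0.811, adjusted p = 0.811). With the number of rows listed at 1, r was -0.455 (permutation p = 0.185, adjusted p = 0.382) and rho was -0.406 (permutation p = 0.248, adjusted p = 0.811). Leaving out the same pair of animals changed the latter r to 0.239. DDGS replicate 3 had the lowest HBB level and the most rows listed at 1, 5078, and SBM replicate 2 had the highest HBB level and the fewest, 2524. With the share of counts in the 10 most abundant other rows, r was -0.116 (permutation p = 0.745, adjusted p = 0.859) and rho was -0.249 (permutation p = 0.494, adjusted p = 0.811). The part of these measures in the HBB differences was not tested further.

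The genes whose levels followed HBB most closely are given by identifier, as a description chosen from the same 10 libraries. Among the 12294 other tested genes, ENSBTAG00000017266 had the highest Pearson correlation of log2(CPM + 1) with HBB, 0.928 over 10 animals. Its level ran from 29.6 CPM in DDGS replicate 3 to 91.5 CPM in SBM replicate 2, the same lowest and highest animals as for HBB. ENSBTAG00000001060 came next with 0.916, from 1.09 to 7.92 CPM in the same pair of animals. Within the groups, r for ENSBTAG00000017266 was 0.922 in DDGS and 0.868 in SBM, and for ENSBTAG00000001060 it was 0.966 and 0.608. Spearman's rho with HBB was 0.952 for ENSBTAG00000017266 and 0.879 for ENSBTAG00000001060, so neither followed the order of HBB exactly. Their ranges were smaller, 3.09-fold for ENSBTAG00000017266 and 7.29-fold for ENSBTAG00000001060, against 83.4-fold for HBB.

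Levels in the opposite order were as closely related. ENSBTAG00000022450 had a Pearson correlation of -0.966 with HBB and fell from 25.2 CPM in DDGS replicate 3 to 12.2 CPM in SBM replicate 2. ENSBTAG00000015720 had -0.946, with 339 CPM in DDGS replicate 3 and 205 CPM in SBM replicate 5. Without DDGS replicate 3 and SBM replicate 2 the correlations were 0.848 and 0.804 for ENSBTAG00000017266 and ENSBTAG00000001060, and -0.926 and -0.965 for ENSBTAG00000022450 and ENSBTAG00000015720. These 10 values per gene share libraries, depth and scaling factors.

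**Figure D5:**
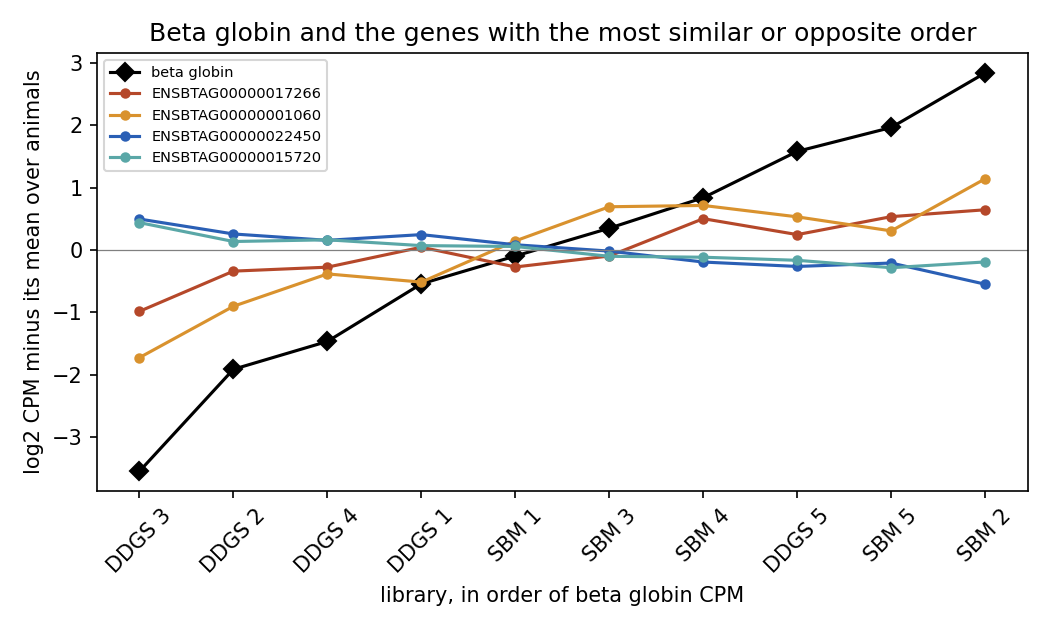
Log2 CPM minus its own mean over the 10 animals, for beta globin (HBB, black) and the genes with the highest (ENSBTAG00000017266, ENSBTAG00000001060) and lowest (ENSBTAG00000022450, ENSBTAG00000015720) correlation with it, with the animals in order of HBB level. The lines rise or fall with HBB but over 7.29-fold or less, against 83.4-fold for HBB.

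By positive correlation, HBB had about as many close companions as a typical gene. At r of 0.8 or more it had 49 genes, where the median tested gene had 55, and 44.1% of tested genes had fewer. All 49 had a lower mean log2 level in DDGS, a direction that follows from choosing them by likeness to HBB in these same animals. Their highest levels were a median of 5.26 times their lowest. A further 68 genes had r of -0.8 or less, and the number of such genes for a typical gene was not computed. No file or table used here pairs these identifiers with symbols, so the lists of red cell, white cell, platelet and vessel genes drawn up for the comparison were not applied.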

How the data were processed

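The deposited table holds whole-number counts per gene for 10 libraries, left unscaled by the authors. Per the submitters' processing notes, the tools and assembly were TopHat2 2.0.9, Bowtie2, HTSeq 0.5.3p7, FastQC 0.10.1 and UMD3.1. The annotation release, strand setting, handling of reads with several matches and any filters were not given in the sources used. How the lowest value came to be 1 is not stated either.

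The whole table was fitted with edgeR 4.0.16 in R 4.3.3 (quasi-likelihood test, TMM factors, default expression filter, robust estimates, diet group as the only term), with Benjamini-Hochberg adjustment over all tested genes and a threshold of 0.05. The fit was also run on simulated counts, and the outcome is not given here. Intervals of the fold change use the fit's standard error and degrees of freedom. Single values were tested over all 252 assignments of 5 animals, and correlations with 100000 permutations. Alternatives used limma 3.58.1, DESeq2 1.42.0, other factors and filters, values of 1 set to 0, a replicate block, and each library left out. Named genes were the globin rows present and the 2 genes with the highest and the 2 with the lowest correlation with HBB. The members, lists and tests were chosen with earlier results of these data known. Separate animals are assumed from the labels.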

Additional observations from a re-analysis of the deposited data

Results flagged for a closer look

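In 3 of the 6 groups of 5 values examined, 1 animal lay far from the other 4 by Dixon's criterion. Chance meets that criterion in about 1 of 20 groups when values are normally distributed. Here it was applied to CPM and to ratios of counts without taking logs, so that rate cannot be used for these groups. The 3 flagged values are also linked, since the ratio contains both rows. DDGS replicate 5 had 40.3 CPM of HBB, against 1.15 to 9.26 CPM in the other DDGS animals. SBM replicate 2 had 0.315 CPM of the alpha row ENSBTAG00000026418, against 0.0484 to 0.0576 CPM in the other SBM animals, which were all listed at 1 count. DDGS replicate 3 had 5.88 alpha counts per 100 beta counts, against 0.120 to 1.45 in the other DDGS animals; its alpha value is listed at 1, so this follows from its 17 counts of HBB.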

How the results depend on the processing

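The HBB log2 fold change was -3.09 to -1.16 without each library in turn and -2.28 to -1.76 under the other 10 alternatives; its direction held in all of them and no adjusted p was below 0.689. The unadjusted p was 0.0503 in DESeq2 (adjusted p = 0.689) and 0.00526 in limma voom with sample weights (adjusted p = 0.875). The number of genes called was 0 in edgeR, 15 of 13807 in DESeq2, and 0 to 1 without each library in turn, the 1 without DDGS replicate 4. HBB was not among them. At an unadjusted p under 0.05 edgeR gave 460 genes and limma voom 659. The difference in the alpha to beta log2 ratio was 1.12 to 2.52 without each library in turn. The correlation of the alpha and beta rows was -0.489 to 0.596 without each library in turn, with the negative value without SBM replicate 2. Same-numbered libraries deviated together with correlations of -0.085 to 0.103, and 2 of 10 libraries correlated best with their own number. These values gave no sign that the shared replicate numbers pair animals. They cannot exclude a pairing, which the labels do not state. With the replicate block the HBB log2 fold change was -2.24 (edgeR adjusted p = 0.998), 0 genes were called, and the ratio differed by 1.81 (exact sign-flip p = 0.125, where 0.0625 is the smallest possible). The alpha row passed no expression filter, so it has values only without a filter (edgeR adjusted p = 0.765) and in DESeq2 (unadjusted p = 0.541). A sum of the alpha rows was not run, since only 1 was present. The alpha row, listed at 1 in every animal but SBM replicate 2, allows no comparison of the diets. The parts of depth and of read assignment in these low counts were not tested.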
